A study of Mus musculus with 16 samples.

Results

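Fibrosis, extracellular matrix and hepatic stellate cell genes were followed through a study of mouse liver. The 44 genes were chosen by symbol, as collagens, other matrix proteins, matrix enzymes and their inhibitors, TGF beta signalling genes and markers of stellate cells, and each was found in 1 of the 30463 gene rows of the authors' deposited table. The study sampled livers of C57BL/6N mice, labelled wild type, at 14 weeks of age, with 16 samples in 4 groups of 4. The groups were vehicle with control diet (CD-Vehicle), DEN with control diet (CD-DEN), vehicle with high fat diet (HFD-Vehicle) and DEN with high fat diet (HFD-DEN). DEN is diethylnitrosamine, a liver carcinogen, and it or vehicle was injected at 2 weeks of age. The high fat diet, labelled 60%, replaced the control diet from 6 weeks of age in the HFD groups. The values below belong to 1 comparison that the authors made and deposited, without naming its sides. A positive log2 fold change is therefore called higher on the positive side, which is the side on which Cidea, a lipid droplet gene, was higher in the authors' deposited table (log2 fold change 8.20 ± 0.64, SE). Values per library are not given here, because the library codes could not be matched to the sample labels.

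Stellate cells lie between hepatocytes and the sinusoidal endothelium and, at rest, store retinyl esters, which the enzyme encoded by Lrat makes. In chronic injury they turn into contractile myofibroblasts, which lay down fibrillar collagen under the control of TGF beta and PDGF signals, while genes of the resting state are turned down. Whole liver also holds matrix made by other cells: hepatocytes secrete plasma fibronectin and the collagen XVIII that carries endostatin, and endothelial cells make basement membrane collagen. In RNA of whole liver, fewer cells of a type and less RNA per cell cannot be told apart.

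Nearly all matrix and stellate cell genes stayed below the threshold of the authors' test in this comparison. Of the 44 genes, 1 passed the authors' test at an adjusted p below 0.05, which was Mmp14, a membrane-anchored matrix protease, with -0.45 ± 0.14 as its log2 fold change (SE, adjusted p = 0.0274, authors' deposited table). Among all 16288 genes with an adjusted p there, 6.57% passed, 3.67% on the positive and 2.9% on the negative side. Of the log2 fold changes of the 44 genes, 19 were positive and 25 negative, where 49.2% of all tested genes were positive, with a median of -0.0064, beside a median of -0.0044 over all genes tested. They ran from -0.86 for Ccn2 to 0.53 for Col4a1 in the authors' deposited table (log2 fold change). At an unadjusted p below 0.05 there were 5 genes, of which Mmp14, Col18a1, Col5a2 and Ccn2 were negative and Col4a1 positive, where 19% of all tested genes passed.

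The error of each estimate limits how small a change could have passed. At the threshold of the authors' table, a gene needed a change of 2.94 times its standard error, which came to a median of 1.71-fold over the 44 genes. That minimum lay at 1.18-fold for Tgfbr1 and Col18a1 and at 3.21-fold for Timp1, whose mean normalized count of 6.08 was the lowest of the 44. For 39 genes it was below 2-fold, and for Timp1, Lox, Col15a1, Ccn2 and Loxl1 it was above. The 95% interval of the log2 fold change lay within a 2-fold change in both directions for 37 of the 44 genes (84.1%), beside 75.2% of all genes tested, and within a 1.5-fold change for 16 (36.4%), beside 51.3%. Among all tested genes with a mean count of at least 100, which 29 of the 44 reached, these shares were 94.1% and 78.1%. The 7 genes whose interval reached past 2-fold were Ccn2, Hgf and Timp3 on the negative side and Col4a1, Col3a1, Timp1 and Lox on the positive side.

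**Figure D1:**
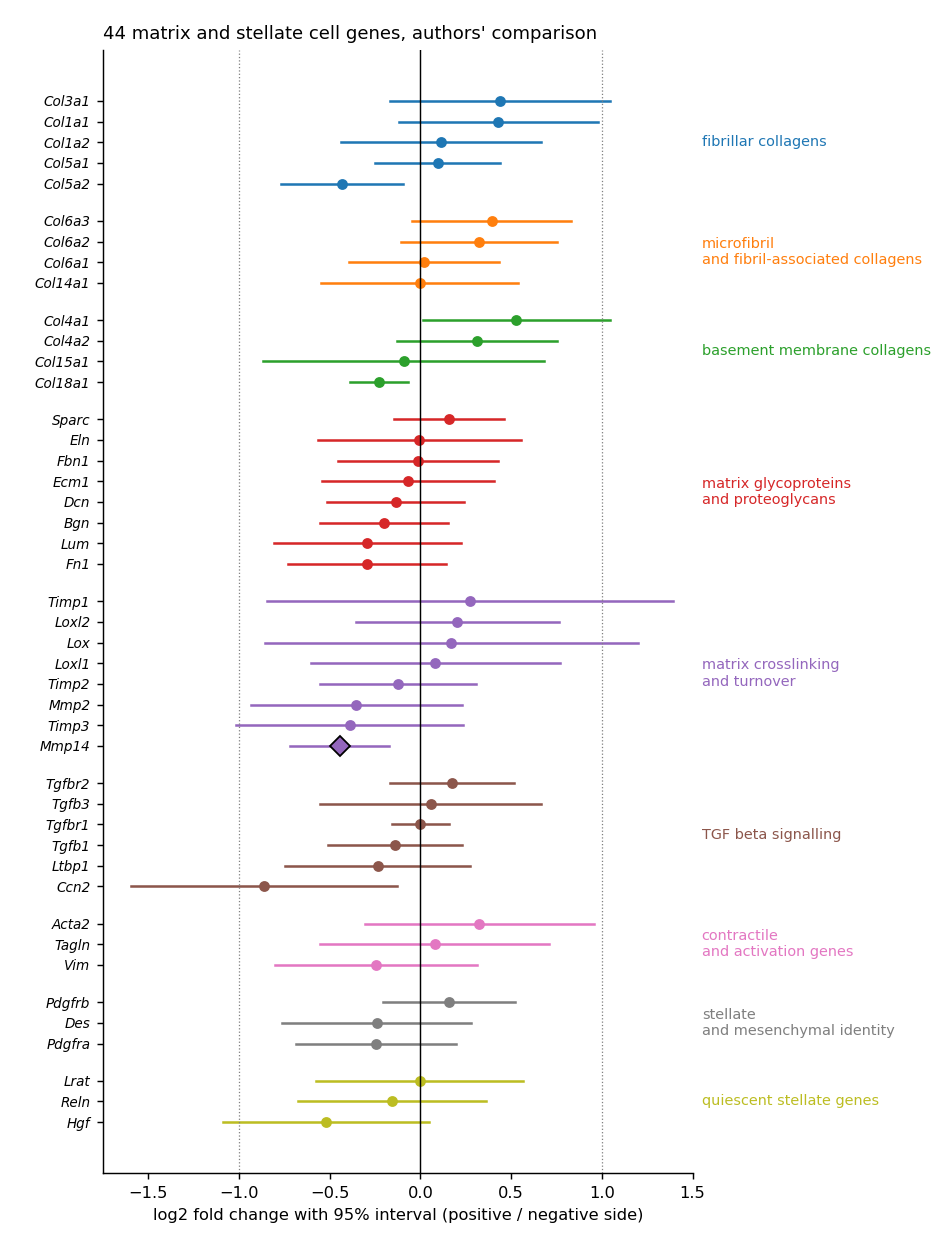
Log2 fold change of each of the 44 genes in the authors' deposited table (points), with its 95% interval from the authors' standard error (lines), ordered within roles. Dotted lines mark a 2-fold change, and the diamond marks Mmp14, the gene that passed at an adjusted p below 0.05. All intervals but those of Mmp14, Col18a1, Col5a2, Ccn2 and Col4a1 cross 0.

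**Figure D2:**
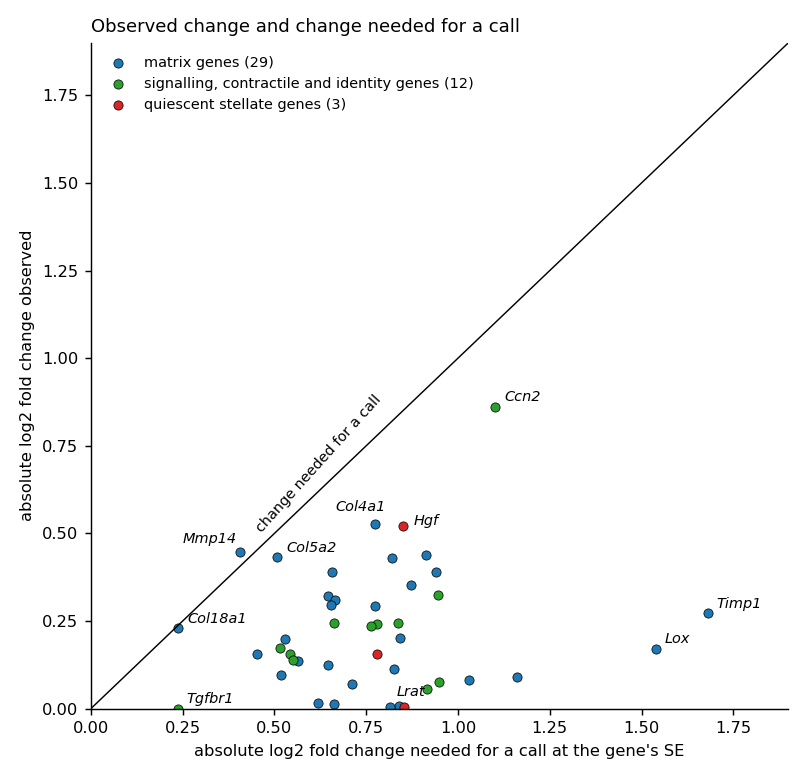
Size of the observed log2 fold change (vertical axis) against the size needed to pass the test at that gene's standard error (horizontal axis). Mmp14 lies above the line of equality, Col18a1 lies just under it, and the other genes lie below, with Timp1 and Lox farthest to the right.

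The levels of the 44 genes spanned several orders of magnitude, so their estimates do not rest on equal depth. Together they held 0.480% of the summed mean normalized counts of all genes in the authors' deposited table. Fn1, fibronectin, made up 61.6% of that sum at a mean normalized count of 60232, and Col18a1, the collagen XVIII chain, made up 20.2% at 19742. The mean normalized count was below 100 for 15 genes and below 10 for Timp1 and Lox. Per kilobase of annotated exon, Fn1 stood at 5155 and Col18a1 at 2812 mean normalized counts, Ecm1 at 766, Dcn at 484 and Bgn at 260.0. The type I collagen chains were at 23.1 for Col1a1 and 19.1 for Col1a2, and Col3a1 was at 34.4 (mean normalized count per kilobase). Lrat, at 64.3 mean normalized counts per kilobase, was thus higher than each of these fibrillar chains, with Col1a1 at 0.360 of it. The lengths join the exons of all annotated transcripts, 9.82 kilobases for Col3a1 and 5.35 for Lrat. Before division by length, Col3a1 stood at 338 and Lrat at 344 mean normalized counts, so their distance per kilobase depends on these lengths. The smooth muscle actin gene Acta2 stood at 13.8, Tagln at 6.70 and the crosslinking enzyme gene Lox lowest of all at 1.97 (mean normalized count per kilobase). These levels are means over the libraries of the table, with no error given.

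**Figure D3:**
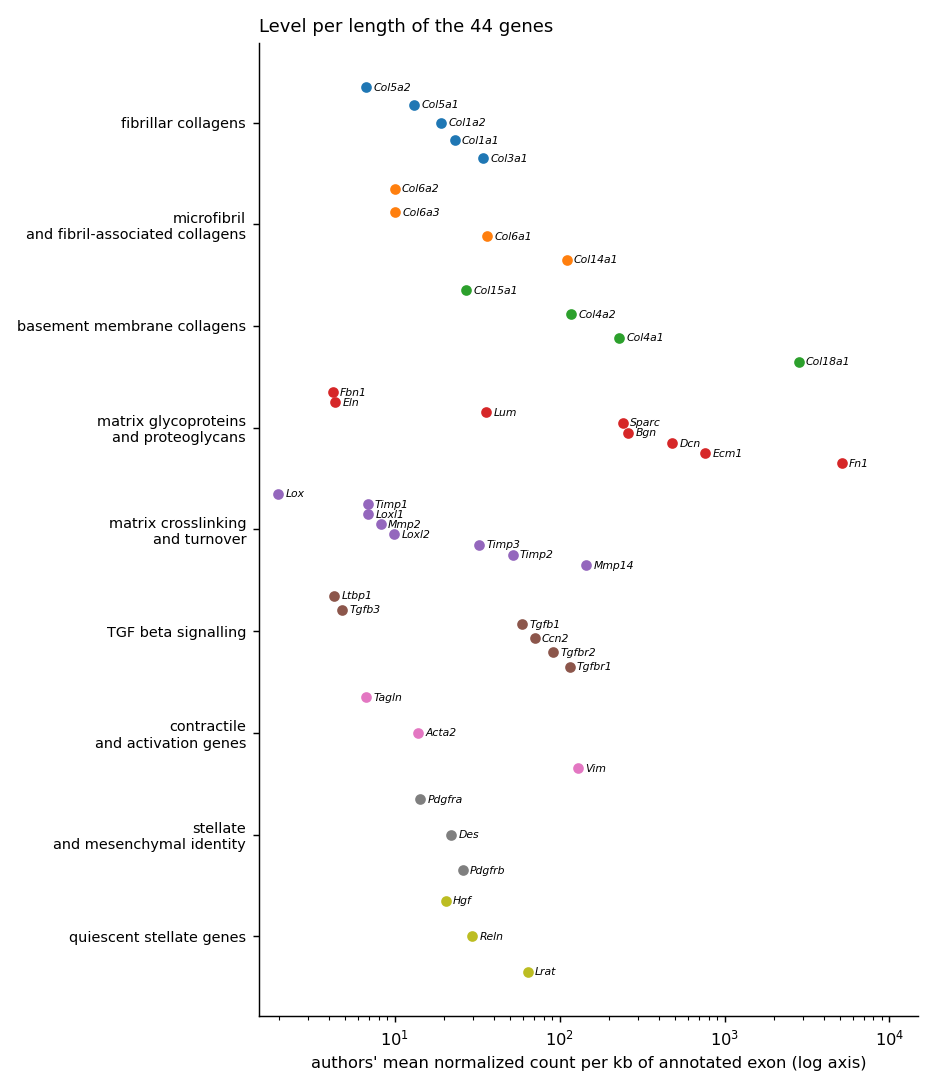
Mean normalized count per kilobase of annotated exon for the 44 genes, on a log axis, grouped by role. Fn1 and Col18a1 stand highest, at 5155 and 2812, the fibrillar collagens lie between 6.71 and 34.4, and the quiescent stellate genes between 20.4 and 64.3.

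Chains of the fibrillar collagens, which form the scar fibres of a fibrotic liver, did not pass the test. Col1a1, a chain of type I collagen, had a log2 fold change of 0.43 ± 0.28 (SE, adjusted p = 0.420) and its partner chain Col1a2 one of 0.11 ± 0.28 (SE, adjusted p = 0.883), both from the authors' deposited table. Col3a1, type III collagen, stood at 0.44 ± 0.31 (log2, SE, adjusted p = 0.473, authors' deposited table). The intervals ran from -0.12 to 0.98 for Col1a1, from -0.44 to 0.66 for Col1a2 and from -0.17 to 1.05 for Col3a1 (log2), so a 1.97-fold increase of Col1a1 lay at the upper end of its interval, and an estimate of 1.77-fold would have passed the test. The type V chains, which regulate fibril diameter, lay apart in sign: Col5a1 was at 0.096 ± 0.18 and Col5a2 at -0.43 ± 0.17 (log2, SE, adjusted p = 0.835 and 0.114, authors' deposited table). Col3a1 and Col5a2 are neighbours on chromosome 1, at 45311538 to 45349706 on the plus strand and 45374321 to 45503282 on the minus strand in GRCm38, 24614 bases apart. Their estimates had opposite signs and similar size, and the difference between them was not tested.

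Collagens of microfibrils and fibril surfaces stayed below the threshold as well. The 3 chains of collagen VI, which forms beaded filaments around cells, were at 0.018 ± 0.21 for Col6a1, 0.32 ± 0.22 for Col6a2 and 0.39 ± 0.22 for Col6a3 (log2, SE, authors' deposited table). The smallest adjusted p of these was that of Col6a3, at 0.337. Col14a1, a fibril-associated collagen, had an estimate near 0, at -0.0043 ± 0.28 (log2, SE, adjusted p = 0.997, authors' deposited table). Per kilobase its mean normalized count was 110.3, above that of each fibrillar chain.

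Basement membrane collagens held both the highest positive estimate of the 44 genes and one of the most precise negative ones. Col4a1 had a log2 fold change of 0.53 ± 0.26 (SE, 95% interval 0.013 to 1.04, adjusted p = 0.248) and Col4a2 one of 0.31 ± 0.23 (SE, -0.13 to 0.75, adjusted p = 0.486), both from the authors' deposited table. The encoded chains are the network-forming collagen IV of basement membranes. Col18a1, the precursor of endostatin, was at -0.23 ± 0.08 (log2, SE, 95% interval -0.39 to -0.071, adjusted p = 0.0625, authors' deposited table), just outside the threshold. Col15a1, the related collagen XV, had the widest interval among collagens, from -0.87 to 0.68 around -0.091 (log2, adjusted p = 0.938, authors' deposited table). Its standard error of 0.39 at a mean normalized count of 172 compares with 0.21 for Col6a1 at 159.

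Col4a1 and Col4a2 lie head to head on chromosome 8 of GRCm38, from 11198423 to 11312826 on the minus strand and from 11312805 to 11449287 on the plus strand. Their annotated exons share 22 bases on opposite strands. The promoter windows of RefSeq on GRCm38.p6, which run from 250 bases before to 50 bases after a start, share 78 bases from 11312777 to 11312854. They are shown because the pair had the only shared window among the genes and both estimates were positive. Capitals mark the shared bases, which read as reverse complements of each other.
Col4a1, chr8:11312777-11313076, minus strand: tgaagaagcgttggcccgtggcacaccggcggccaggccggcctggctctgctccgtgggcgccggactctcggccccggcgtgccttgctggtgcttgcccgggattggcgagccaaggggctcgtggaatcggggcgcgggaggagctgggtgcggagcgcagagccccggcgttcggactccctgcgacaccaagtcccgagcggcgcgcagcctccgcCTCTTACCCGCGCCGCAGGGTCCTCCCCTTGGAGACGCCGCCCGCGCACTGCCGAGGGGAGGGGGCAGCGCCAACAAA
Col4a2, chr8:11312555-11312854, plus strand: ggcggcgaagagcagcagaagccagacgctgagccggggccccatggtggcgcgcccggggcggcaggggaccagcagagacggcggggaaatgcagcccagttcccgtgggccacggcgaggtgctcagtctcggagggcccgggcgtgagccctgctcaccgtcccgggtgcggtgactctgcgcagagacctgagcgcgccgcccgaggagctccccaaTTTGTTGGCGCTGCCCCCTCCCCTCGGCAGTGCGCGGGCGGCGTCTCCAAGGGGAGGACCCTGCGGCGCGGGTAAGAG
Both windows hold the CCAAT box (letters CCAAT) and the GC box (letters GGGCGG), counted on both strands. Of all 32851 promoter windows of 300 bases in that table, 37.4% hold the former and 35.7% the latter.

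Among matrix glycoproteins and proteoglycans, 7 of 8 estimates were negative, where 49.2% of all tested genes had positive estimates. At an adjusted p below 0.05, 0 of the 8 passed the test, beside 2.9% of all tested genes passing on the negative side. Fn1, which links cells to collagen and which hepatocytes also secrete into plasma, was at -0.30 ± 0.22 (log2, SE, adjusted p = 0.508, authors' deposited table). Lum, lumican, was at -0.29 ± 0.26, Bgn, biglycan, at -0.20 ± 0.18 and Dcn, decorin, at -0.14 ± 0.19 (log2, SE, authors' deposited table). These 3 genes encode small leucine-rich proteoglycans that bind collagen fibrils, and decorin also binds TGF beta. Ecm1, whose product holds TGF beta in its latent form, was at -0.069 ± 0.24 with an interval from -0.54 to 0.41 (log2, SE, authors' deposited table). The elastic fibre genes Fbn1, fibrillin, and Eln, elastin, had log2 fold changes of -0.014 ± 0.23 and -0.0079 ± 0.29 (SE, authors' deposited table). Sparc, a collagen-binding protein of remodelling tissue, was the positive member of the group at 0.16 ± 0.15 (log2, SE, adjusted p = 0.642, authors' deposited table).

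Of the 8 genes of matrix crosslinking and turnover among the 44, Mmp14 passed the test. Among all tested genes 6.57% passed, 2.9% on the negative side, and a count over so few genes says little beside these shares. The protease encoded by Mmp14, also called MT1-MMP, cleaves collagen at the cell surface and activates pro-MMP2. It was lower on the positive side, at 0.734 of the level on the negative side with a 95% interval from 0.608 to 0.886, and its mean normalized count was 866 in the authors' deposited table. By the size of its statistic it ranked 768 of 16288 genes. The authors' adjusted p of 0.0274 became 0.0508 when all 30463 genes were adjusted and 0.535 when the statistics were divided by their spread over all genes (1.44). Over all 8 alternatives tried it ran from 0.0216 to 0.535, and Mmp14 passed in 4 of them. These were mean count minimums of 10 and of 100, the looser threshold of 0.10, and subtraction of the median of all genes. Mmp14 did not pass with all genes adjusted, with Benjamini-Yekutieli adjustment, at a threshold of 0.01 or with the scaled statistic. Mmp14 (ENSMUSG00000000957) lies on chromosome 14 from 54431612 to 54445364, plus strand, in GRCm38. Its RefSeq promoter window is shown because it is the gene that passed, with CCAAT and GC boxes in capitals.
Mmp14, chr14:54431348-54431647, plus strand: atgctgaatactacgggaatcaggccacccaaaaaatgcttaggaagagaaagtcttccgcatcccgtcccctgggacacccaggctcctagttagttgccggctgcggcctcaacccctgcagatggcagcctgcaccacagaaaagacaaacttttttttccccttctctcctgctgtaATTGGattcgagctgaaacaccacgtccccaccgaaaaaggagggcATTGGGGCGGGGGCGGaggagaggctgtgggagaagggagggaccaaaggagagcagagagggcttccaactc
The window holds 2 CCAAT boxes, both on the minus strand, and 2 GC boxes, and a CCAAT box overlaps a GC box at a shared base.

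The other genes of matrix crosslinking and turnover among the 44 did not pass. Mmp2, the gelatinase that MMP14 activates, was at -0.35 ± 0.30 (log2, SE, adjusted p = 0.569, authors' deposited table). The inhibitor genes were at -0.13 ± 0.22 for Timp2, -0.39 ± 0.32 for Timp3 and 0.27 ± 0.57 for Timp1 (log2, SE, authors' deposited table). Timp1, whose product rises in serum in liver fibrosis, had an interval from 0.556-fold to 2.63-fold, so neither a 2-fold increase nor no change lay outside it. Timp3 shares 1733 exon bases (21.3%) with Syn3 on the opposite strand, which had a mean normalized count of 10.6 beside 264 for Timp3. The crosslinking oxidase genes Lox, Loxl1 and Loxl2 were at 0.17 ± 0.52, 0.082 ± 0.35 and 0.20 ± 0.29 (log2, SE, authors' deposited table), with adjusted p-values from 0.773 to 0.938.

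Ligands, receptors and a target of TGF beta likewise stayed below the threshold. Tgfb1, the main ligand in liver, was at -0.14 ± 0.19 and Tgfb3 at 0.055 ± 0.31 (log2, SE, authors' deposited table). Tgfbr1, the kinase receptor, had the narrowest interval of the 44 genes, from -0.16 to 0.16 around -0.00024 (log2, SE 0.08, authors' deposited table), which leaves out changes beyond 1.12-fold in either direction. Tgfbr2, which binds the ligand, was at 0.17 ± 0.18, and Ltbp1, which tethers latent TGF beta to the matrix, at -0.24 ± 0.26 (log2, SE, authors' deposited table). Ccn2, connective tissue growth factor, a target of TGF beta and of YAP and TEAD, had the widest difference of the 44 genes. Its log2 fold change was -0.86 ± 0.37 with an interval from -1.60 to -0.13 (SE, adjusted p = 0.161, authors' deposited table). Its mean normalized count was 202, close to that of Timp2 at 203, whose standard error was 0.22.

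Genes that mark contractile myofibroblasts did not pass either. Acta2, smooth muscle actin, was at 0.32 ± 0.32 (log2, SE, 95% interval -0.31 to 0.95, adjusted p = 0.648, authors' deposited table), and the interval left out a 2-fold increase. Tagln, which encodes an actin-binding protein of smooth muscle, was at 0.077 ± 0.32 (log2, SE, authors' deposited table). Its value is uncertain because 62.4% of its exon bases overlap Gm48529 on the opposite strand, which had a mean normalized count of 18.6 beside 13.3 for Tagln, and no source used here states the strand setting of the counting. Pcsk7, also on the opposite strand, shares 108 exon bases (5.43%) with Tagln and had a mean normalized count of 608. Vim, the intermediate filament vimentin of mesenchymal and many immune cells, was at -0.25 ± 0.28 (log2, SE, authors' deposited table). Receptors and filaments that mark the mesenchymal lineage lay on both sides of 0. Pdgfrb, the PDGF receptor of stellate cells, was at 0.16 ± 0.18, Pdgfra at -0.25 ± 0.23 and Des, desmin, at -0.24 ± 0.27 (log2, SE, authors' deposited table).

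The 29 matrix genes had 14 positive and 15 negative estimates, a median log2 fold change of -0.0043, and 0 positive and 1 negative call, where 3.67% and 2.9% of all tested genes were called. Lrat, Reln and Hgf had 3 negative estimates, a median of -0.16 and 0 calls. Among all tested genes 49.2% of estimates were positive and 6.57% of genes were called, and counts over so few genes say little beside these shares. Both medians stand beside -0.0044 for all genes tested. Within the matrix class the 13 collagens had a median of 0.11 with 9 positive estimates, and the 16 other matrix genes a median of -0.097 with 5 positive, which is a description with no test between the lists. Lrat, which makes the retinyl esters that resting stellate cells store, was at -0.0049 ± 0.29 with an interval from 0.672-fold to 1.48-fold (log2, SE, adjusted p = 0.997, authors' deposited table). Reln, reelin, a secreted glycoprotein found in stellate cells, was at -0.16 ± 0.27 (log2, SE, adjusted p = 0.819, authors' deposited table). Hgf, the hepatocyte growth factor that stellate cells release, was at -0.52 ± 0.29 (log2, SE, 95% interval -1.09 to 0.047, adjusted p = 0.319, authors' deposited table). A wider list of 17 stellate markers of the resting state had 7 positive and 10 negative estimates, 0 calls and a median of -0.034. The smallest adjusted p-values in it were 0.159 for Vipr1, the VIP receptor gene, at -0.58 ± 0.25 and 0.387 for Colec10, a collectin gene, at -0.42 ± 0.26 (log2, SE, authors' deposited table).

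**Figure D4:**
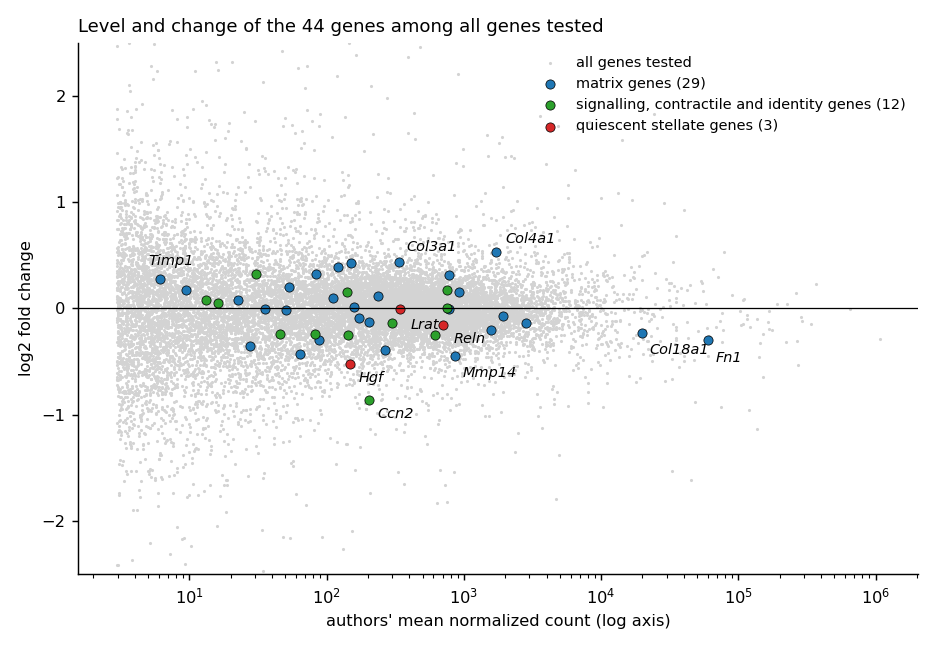
Log2 fold change against mean normalized count (log axis) for all genes tested (grey) and the 44 genes (coloured by class) in the authors' deposited table. The axis stops at a log2 fold change of 2.5 in either direction, which leaves 32 grey genes out of view. The coloured points lie between -0.86 and 0.53.

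Further matrix and signalling genes were called in a share near the background. Of 253 further tested genes from 14 lists of matrix, TGF beta, PDGF and cell type genes, 19 were called, beside 6.57% of all tested genes. Among 17 other collagens, Col12a1 was called, at 1.86 ± 0.36 (log2, SE, adjusted p = 2.4e-05, authors' deposited table) with a mean normalized count of 72.5. It encodes a fibril-associated collagen like Col14a1, whose estimate was near 0. Of 37 basement membrane and other matrix proteins, Spon2, a secreted spondin, was called at 0.77 ± 0.22 and Lamb3, a laminin chain of epithelia, at 0.69 ± 0.22 (log2, SE, authors' deposited table). Of 20 collagen processing genes, Bmp1, the procollagen C-proteinase, was called at -0.38 ± 0.12, while Serpinh1, the collagen chaperone, at 0.55 ± 0.25, was not (log2, SE, adjusted p = 0.196, authors' deposited table). Of 22 other matrix proteases and inhibitors, Mmp12, the macrophage elastase, was called at 1.71 ± 0.44 (log2, SE, authors' deposited table).

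Among 28 tested genes of the wider TGF beta pathway, with a median of -0.11, 2 were called negative, beside 2.9% of all tested genes. Skil, a repressor of SMAD signalling, was called at -0.43 ± 0.13 and Fst, follistatin, which binds activins, at -1.05 ± 0.34 (log2, SE, authors' deposited table). Of 16 PDGF and other fibrogenic ligands and receptors, Ccn1, a matricellular relative of Ccn2, was called positive at 1.23 ± 0.21 (log2, SE, adjusted p = 1.6e-06, authors' deposited table). Ccn1 and Ccn2 thus lay on opposite sides, and their difference was not tested. Agtr1a, the angiotensin II receptor gene, was called at -0.69 ± 0.17 (log2, SE, adjusted p = 0.00351, authors' deposited table).

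Markers of the other cells that make or touch matrix gave values beside which Mmp14 and the collagens stand. Among all tested genes 6.57% were called, 3.67% positive and 2.9% negative, and 49.2% of the estimates were positive. Hepatocyte markers were abundant, with Alb at a mean normalized count of 1079857 and the lowest of 15 markers, Asgr1, at 8803. Of those 15, 12 estimates were negative and Tat, Cps1 and Ahsg were called negative (median -0.28). All 15 Kupffer cell markers had negative estimates (median -0.50), with Fcna and Timd4 called, and 17 of 18 sinusoidal endothelial markers were negative (median -0.40), with Bmp2 called. Resident macrophages and endothelium can express Mmp14 and Col18a1, and their part in those values was not tested. Cholangiocyte markers had 12 of 13 positive estimates (median 0.43) with Krt8 called. Krt8 and Krt18 stood at mean normalized counts of 2218 and 4129, beside 10.3 for Krt7 and 13.2 for Krt19. Krt18, Krt7 and Krt19 were not called, and which cells the Krt8 RNA came from was not tested. Monocyte and scar-associated macrophage markers had 8 of 14 positive (median 0.10), with Mmp12 and Cd63 called. Portal fibroblast and mesothelial markers had 4 of 14 positive (median -0.30), with Entpd2 called at 0.71 ± 0.24 (log2, SE, authors' deposited table), a value made uncertain by 612 exon bases that it shares with Npdc1. Smooth muscle and pericyte markers had 6 of 15 positive (median -0.19), with the tropomyosin gene Tpm2 called, and Acta2 and Tagln lay within this spread.

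**Figure D5:**
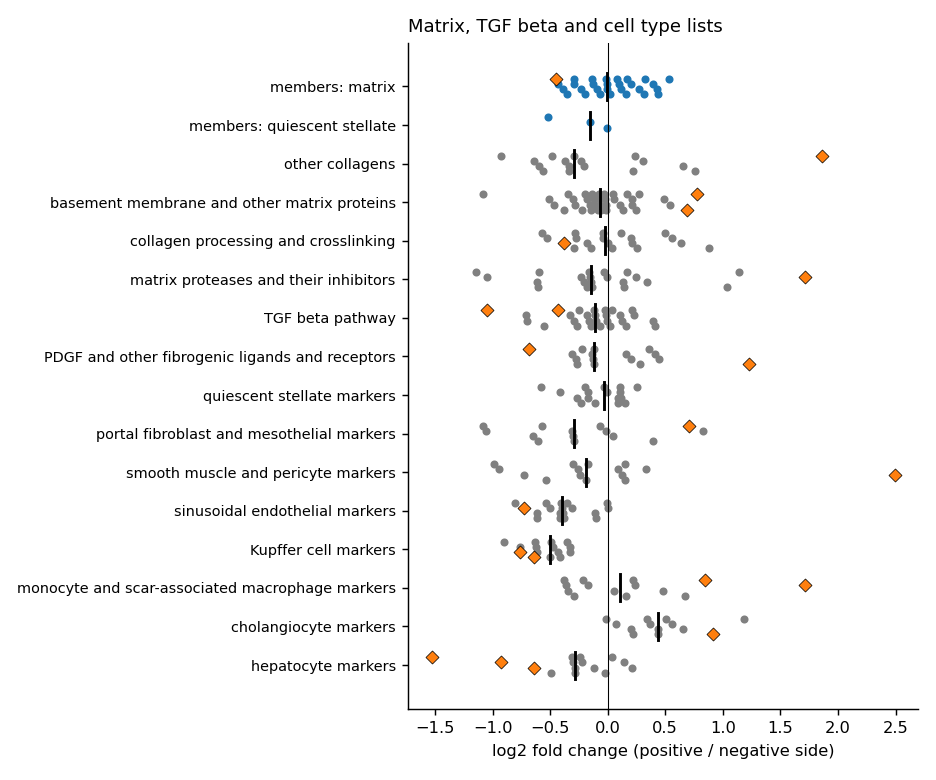
Log2 fold change of each tested gene in the matrix and quiescent stellate classes of the 44 genes (blue) and in 14 further lists (grey), with called genes as orange diamonds and medians as black bars. The matrix class centres on 0, and the Kupffer cell markers all lie below 0.

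Promoter sequence was on record for 29 of the 44 genes, in 34 windows of 300 bases. Some genes have several windows, and those of Col6a2 overlap, as do those of Col4a1 and Col4a2, so the windows are not separate observations. GC boxes stood in 19 of them (55.9%), beside 35.7% of all windows, and CCAAT boxes in 14 (41.2%), beside 37.4%. The SMAD element (letters CAGACA) stood in 10 windows (29.4%), beside 21.0% of all. Those of Col1a2, Col3a1, Col5a1, Sparc and Acta2 belonged to genes with positive estimates. Those of Col18a1, Des, Ecm1, Ltbp1 and Tgfbr1 belonged to genes with negative estimates. For Col18a1, Ltbp1 and Tgfbr1 the element was absent from the window nearest the annotated start of the gene and stood in another window. The TEAD element (letters GGAATG) stood in 6 (17.6%), beside 14.7%, the AP-1 element (letters TGANTCA) in 2 (5.88%), beside 7.81%, and the TATA box (letters TATAAA) in 3 (8.82%), beside 13.6%. All motifs were read on both strands, and a match describes the letters of the window alone.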

How the data were processed

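RNA of 16 liver samples was sequenced; the labels' protocols name a stranded kit for mRNA. The submitters' processing notes list HISAT2, HTSeq 0.11.1, FastQC and Trimmomatic, and GRCm38 as the build. In the authors' table the columns have the header names of a DESeq2 result, and no source used here states the tool, the model, the samples compared or the sides. Per the file headers, the authors' table gives a mean normalized count (a signal averaged over libraries), a log2 fold change with its SE, a test statistic (a score), and a p-value with its adjusted p-value. On the values, the statistic equals fold change over SE, the p-value is its 2-sided normal p, and the adjusted p is Benjamini-Hochberg over the 16288 genes that have one. Its 16 library columns match no sample label and were not used, so the planned diet and DEN comparisons were not run, and depth per sample and spread between samples are unknown here. P-values rest on the authors' model. Whether samples came from separate animals is not stated.

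Genes with an adjusted p below 0.05 were called. Intervals are 95% normal intervals from the authors' SE. Lists are described by counts and medians, without tests. The 44 genes, their roles and the 14 lists were chosen with earlier results of these data known. All 44 genes are named, and of each list the called genes, or without any the 2 with the smallest p. Serpinh1 and the neighbouring gene pairs were singled out after their values were seen. A gene was left out of the lists and is not reported here. Exon lengths (the union over transcripts) and positions came from GENCODE M21 on GRCm38 for 44 of 44 genes. Calls and intervals were tested on simulated estimates with the authors' SE. The simulated noise was drawn from those SE, so this checks the steps and cannot show whether the SE fit these data. Python 3.11.15, pandas 2.3.3 and SciPy 1.17.1 were used. Alternatives were other adjustments, thresholds, count minimums, a scaled or centred statistic and other class members.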

Additional observations from a re-analysis of the deposited data

How the results depend on the processing

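Of the 44 genes 0 were called with all genes that have a p-value, where 2.52% of all genes were called. With Benjamini-Yekutieli adjustment 0 were called, beside 2.39% of all genes. At an adjusted p below 0.01 there were 0, beside 3.01%, and with the scaled statistic 0, beside 0.872%. At an adjusted p below 0.10 there were 2 (Mmp14 and Col18a1), beside 9.75%. For the matrix genes the counts were also 0 and 2 in those settings. Of the 253 list genes, 19 of which were called, 9 were with Benjamini-Yekutieli, 9 at 0.01 and 6 with the scaled statistic. There were 26 at 0.10, 18 with the median of all genes subtracted, and 14 of 277 with all genes that have a p-value. With a mean count minimum of 10 there were 19 of 227, and with 100 there were 13 of 131, beside 7.94% and 9.09% of all genes. Over all genes the 1070 calls became 768 with the unfiltered table, 389 with Benjamini-Yekutieli, 1588 at 0.10, 491 at 0.01 and 142 with the scaled statistic. Subtracting the median of all genes turned the log2 fold change of Col14a1 to 9.7e-05 and that of Tgfbr1 to 0.0042, both not called. Without Fn1 and Ecm1 the matrix median was 0.018, and with the wider marker list that of the quiescent genes was -0.072. Quiescent genes had 0 calls in every alternative run. No paired analysis was possible because no library column could be matched to a sample, and leaving out replicates was not run for the same reason. The depth behind single libraries is unknown, and the 2 genes with mean normalized counts below 10, Timp1 and Lox, had the widest intervals.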
